A study of Caenorhabditis elegans with 4 samples.

Results

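Chromosome II of Caenorhabditis elegans, one of the autosomes, carried 547 of the 3271 MSH-5 ChIP peaks in the combined list of the series. These peaks were taken by their chromosome alone, with no threshold on score. The samples were fem-2(b245) hermaphrodites, young adults with a germline, grown at 20 °C: 2 MSH-5 ChIP libraries and 2 input libraries, each numbered 1 and 2. All libraries share the fem-2 allele and the temperature, so there is a single condition and no wild-type group. Extracts were made from whole adults, so germline and somatic chromatin were not separated. The labels do not say that the replicates came from separate cultures, and the spread between them may be technical.

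MSH-5 is a meiotic MutS homologue that acts with HIM-14/MSH-4 on joint DNA molecules during meiotic recombination and is needed for crossovers in this species. ChIP with an antibody against MSH-5 recovers the DNA it is crosslinked to, directly or through other proteins. In the worm, crossovers are more frequent on the outer parts of the autosomes than in their centres, and each chromosome has centromere activity along its whole length rather than at a single point.

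The deposited values are peak positions and peak scores. Beside the combined list there is a list for each ChIP library, with 178 of 1066 peaks on II in replicate 1 and 260 of 1620 in replicate 2. Scores rank peaks within a list, and a score of 3100 in a replicate list is a tied value. How many reads stand behind each list is not known, and a place without a listed peak is not shown to lack MSH-5. Positions are in the WS220 build, per the file headers. Genes and DNA sequence under the peaks were not analysed here, because no annotation or genome of that build was used. MSH-5 binding on II is therefore described by position, width, score and replicate support.

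The peaks on II were mostly narrow and low in score, with a small group of wide or high ones. Combined scores on II ran from 1.45 to 125.08 with a median of 6.27, against a median of 6.29 on the other 5 nuclear chromosomes. Widths ran from 146 to 5895 bp with a median of 272 bp, against 266 bp elsewhere. The 547 peaks covered 1.47% of the chromosome, at 35.8 peaks per Mb, a density between the 27.3 of X and the 42.3 of III. II held 14 of the 100 best-scored combined peaks. Of the 547 peaks on II 126, or 23.0% (95% exact interval 19.6 to 26.8), were among the top 25% of all nuclear combined peaks by score, against 25.4% on the other chromosomes. This difference did not pass the test (Fisher's exact test, two-sided, adjusted p = 0.30 over 7 tests). With the replicate 2 list alone, 19.6% of the II peaks were in the best-scored 25% of that list against 26.0% elsewhere. There the difference passed (Fisher's exact test, p = 0.029, adjusted p = 0.042). In this adjustment the p took the place of its main p among the 7 tests. The share of replicate 2 gaps under 2 kb had a smaller p and did not pass (Fisher's exact test, p = 0.022, adjusted p = 0.052). The call for the best-scored 25% therefore depends on the adjustment. In the replicate 1 list the share was 19.1% against 26.2%, which was of like size but did not pass (Fisher's exact test, adjusted p = 0.065).

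The best-scored peaks on II lay together in a stretch of about 12 kb near the right end. Peaks whose gap to the next was under 2 kb are called a chain here. The chain from 13817625 to 13829532, 11908 bp long, had 10 combined peaks and held 6 of the 10 best-scored II peaks found in both replicate lists. It lay at 90.5% of the chromosome's length from the left end.

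From left to right, these 6 peaks spanned 13817625 to 13818511, 13819498 to 13820287, 13821157 to 13822136, 13822957 to 13823685, 13825039 to 13825579 and 13826798 to 13827591. In the same order, they scored 97.57, 125.08, 111.52, 120.37, 104.94 and 89.77 in the combined list. They were of like width, 541 to 980 bp. Low scores were left out by the way the 6 were picked, which is given below. The other 4 peaks of the chain were minor, with combined scores of 2.63 to 7.78, and were found in the replicate 2 list only.

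The 6 peaks were named among those found in both replicate lists, so their presence in both was set by that choice. Their spacing was nearly even in each list. In the combined list neighbouring midpoints of the 6 peaks were 1674.5 to 1988 bp apart, with a median of 1824.5 bp. In replicate 1 the median was 1763.5 bp (1683 to 1961.5) and in replicate 2 it was 1870 bp (1464.5 to 1922.5). The 6 peaks were picked from the chain by a score of at least 1 in 3 of its highest, after their values were seen. Because the peaks are this close, they are not shown to be separate sites.

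The 2 libraries ranked this chain differently. In replicate 1 the 6 peaks scored 346.06, 397.03, 424.07, 426.16, 273.43 and 323.10, which is above 62.9% to 74.7% of that list. In replicate 2 they scored 1498.42, 1433.01, 1506.55, 1330.64, 1574.58 and 1183.81, above 95.1% to 96.6% of that list. So in replicate 2 all 6 were among the top scores, and in replicate 1 they were in the upper part but not at the top. Which sequence or gene lies under the chain was not tested.

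**Figure D1:**
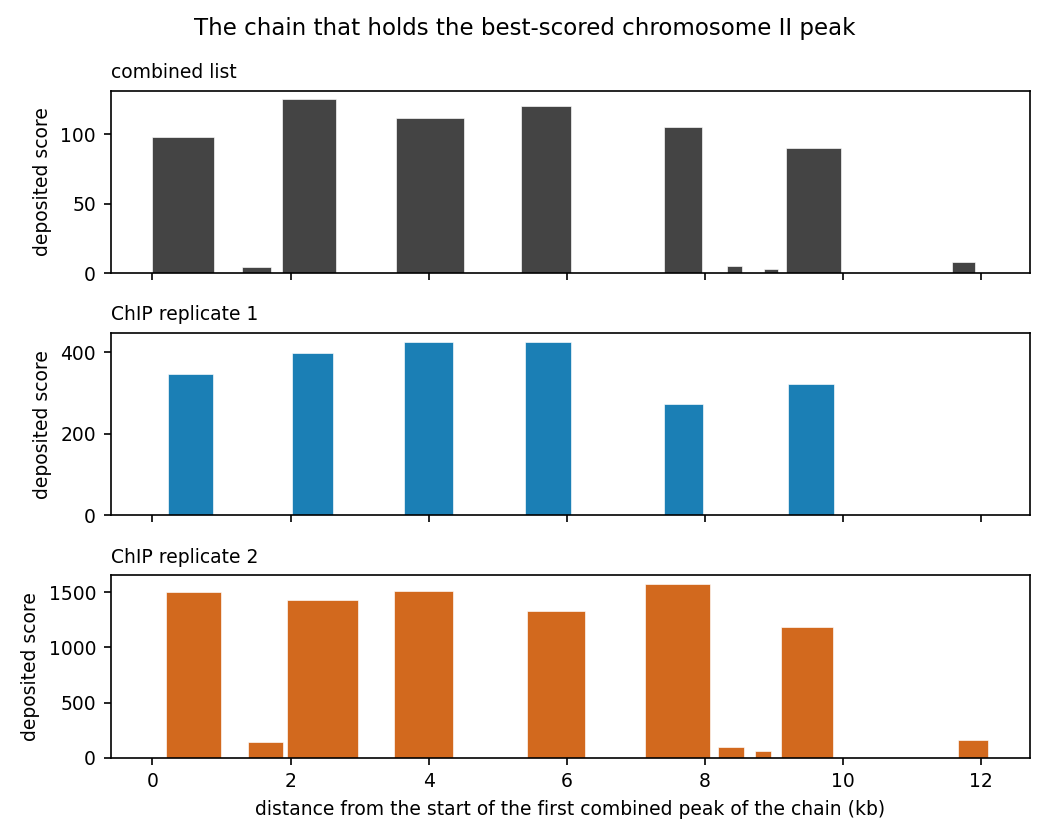
The chain that holds the best-scored peak of chromosome II, in the combined list (top), ChIP replicate 1 (middle) and ChIP replicate 2 (bottom). Each bar spans a peak from start to end, by distance in kb from the start of the first combined peak, and its height is the deposited score, whose scale differs between panels. The 6 high peaks, named among those found in both replicate lists, show in each panel, and the low bars are missing in replicate 1.

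The other 4 of the 10 best-scored peaks were wide peaks in the right 50% of the chromosome, and 3 of them had neighbours within 2 kb. The region at 11149455 to 11152463 was 3009 bp wide and had a combined score of 119.65. It scored 3015.32 in replicate 1 and 3100 in replicate 2, near the top of both lists. The widest combined peak of II, at 10541722 to 10547616, was 5895 bp wide, had a combined score of 77.71 and was tied at 3100 in both replicate lists. It was also the widest II peak of each replicate list, with 4567 bp in replicate 1 and 5517 bp in replicate 2.

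For the last pair of wide regions the replicate lists were less alike. The peak at 9631675 to 9633161 had a combined score of 81.93 and was tied at 3100 in replicate 1, but in replicate 2 it was broken into 4 peaks, the best of which scored 577.34. The peak at 8743250 to 8747779, 4530 bp wide with a combined score of 77.13, was also tied at 3100 in replicate 1. In replicate 2 it was broken into 5 peaks, the best of which scored 1758.58. Neither had an overlap of 0.5 of both peaks in more than 1 of the replicate lists.

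Width went with replicate support on II. All 10 combined peaks wider than 2000 bp were found in both replicate lists, and 29 of the 34 wider than 1000 bp. Over all widths the share was 18.8% on II and 22.9% of all nuclear peaks. A wide peak meets an overlap of 1 bp more easily. The support of wide peaks on the other chromosomes was not counted, so this is not shown to be particular to II. Peaks wider than 1000 bp made up 6.22% of II and 7.90% of the other chromosomes. Peak width and score come from the same reads, so these are descriptions of the lists.

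One wide region was scored very differently in the 2 libraries. The replicate 1 peak at 8288300 to 8292783 scored 1450.85, above 91.2% of that list. The replicate 2 peak at 8288391 to 8292808 had nearly the same edges, with midpoints 58 bp apart, but scored 86.44, above 39.2% of that list. The combined list had 4 peaks there, from 8288675 to 8292616, with scores of 6.73 to 11.86. This region was named after its values were seen.

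The share of peaks found in both replicate lists was lower on II than on the other chromosomes pooled, but near that of I and III. Of the 547 combined peaks 103, or 18.8% (15.6 to 22.4), overlapped a peak of both lists by at least 1 bp, against 22.9% of all nuclear combined peaks and 23.7% (22.1 to 25.3) on the other 5 chromosomes. The difference passed the test (Fisher's exact test, two-sided, adjusted p = 0.033). By chromosome the share was 19.7% (16.3 to 23.5) on I, 20.8% (17.5 to 24.3) on III and 22.3% on IV, and it was higher on V, at 27.8%, and X, at 28.1%. The difference of II did not pass against the other 4 autosomes, which had 22.7% (Fisher's exact test, adjusted p = 0.088). With replicate 2 left out, 30.7% of II peaks had replicate 1 support against 33.4% elsewhere (Fisher's exact test, adjusted p = 0.30). With replicate 1 left out, 37.7% had replicate 2 support against 43.1% elsewhere (Fisher's exact test, adjusted p = 0.047). Peaks lie in chains and are not independent, so these p-values are too small.

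The other peaks on II were found in 1 replicate list or in none. Replicate 1 alone had 65 of them, or 11.9%, against 10.1% of all nuclear peaks, and replicate 2 alone had 103, or 18.8%, against 19.3%. Neither list had 276, or 50.5% (46.2 to 54.7), against 47.7% of all nuclear peaks and 47.2% on the other chromosomes, a difference that did not pass (Fisher's exact test, adjusted p = 0.24). Within 500 bp it was 41.9% against 41.7% (Fisher's exact test, adjusted p = 0.96), and the other 4 autosomes had 49.5% (Fisher's exact test, adjusted p = 0.70). With replicate 1 left out, 62.3% of II peaks lacked replicate 2 support against 56.9% elsewhere (Fisher's exact test, p = 0.02, adjusted p = 0.035). This is the complement of the share with that support, so it is the same test. Its adjusted p was 0.047 when counted as that share, because a different main p was replaced in the adjustment. The median width was 637 bp for II peaks in both lists and 210.5 bp for those in neither, and the median scores were 21.65 and 4.43. Of the bases covered on II, 41.9% lay in the 103 peaks with both lists behind them, against 50.02% elsewhere.

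**Figure D2:**
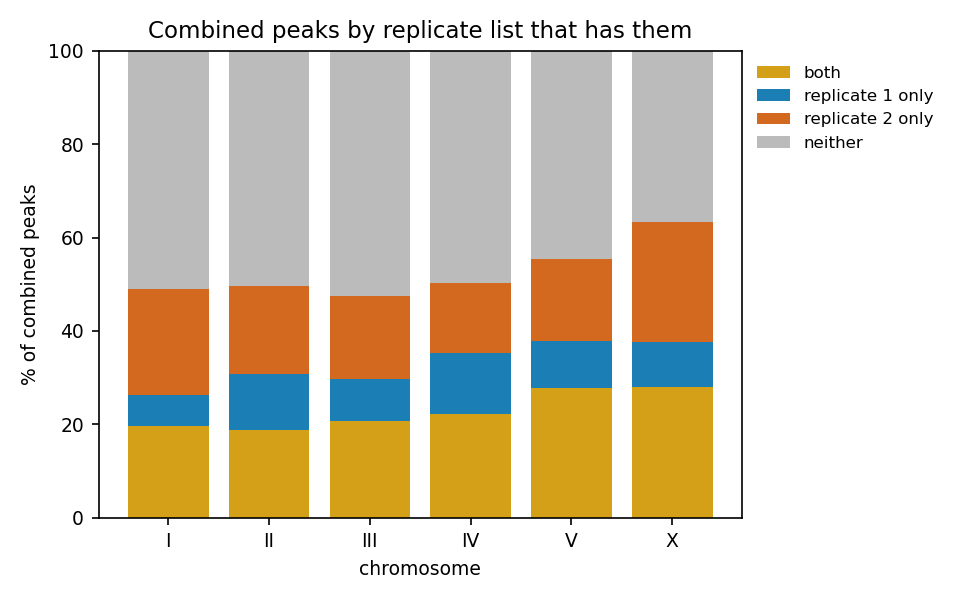
Share of the combined peaks of each nuclear chromosome, in percent, that overlapped a peak of both replicate lists, of replicate 1 only, of replicate 2 only, or of neither. II had the lowest share found in both, 18.8%, and 50.5% of its peaks were in neither list.

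Support on II followed the score. Of the 126 II peaks in the top 25% by score, 65.1% (56.1 to 73.4) were found in both replicate lists and 3.97% in neither. Elsewhere these shares were 65.2% and 4.34%, nearly the same. Of the 134 II peaks in the third 25%, with scores of 4.18 to 6.27, 0 were found in both (exact interval up to 2.72%), against 6.54% (4.79 to 8.68) elsewhere. Of the 140 in the lowest 25%, 2.14% were found in both, against 6.22% elsewhere. The lower share on II in these score classes was not tested.

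The best peaks outside both lists were weaker than the leaders. The best combined peak found in replicate 1 only was at 632429 to 632895 and scored 28.88 in the combined list and 688.18 in replicate 1. The best found in replicate 2 only, at 14492301 to 14493995, scored 26.16 in the combined list and overlapped 4 replicate 2 peaks with scores of up to 767.23. These lie near opposite ends of the chromosome. The best found in neither spanned 410871 to 411148 and scored 19.24, above 87.03% of the combined list.

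Seen from the replicate lists, 104 of the 178 replicate 1 peaks on II, or 58.4% (50.8 to 65.8), overlapped a replicate 2 peak. The share was 65.8% over all nuclear peaks and 67.2% on the other chromosomes, and the difference did not pass after adjustment (Fisher's exact test, adjusted p = 0.053). It passed within 500 bp, at 64.04% against 73.4%, and with an overlap of 0.5 of both peaks, at 42.1% against 52.6% (Fisher's exact test, adjusted p = 0.025 in each). It did not pass in the better-scored 50% of the list, at 84.6% against 85.7% (Fisher's exact test, adjusted p = 0.86), or against the other 4 autosomes, which had 66.7% (Fisher's exact test, adjusted p = 0.076). Of the 260 replicate 2 peaks on II 128, or 49.2% (43.0 to 55.5), overlapped a replicate 1 peak, against 51.2% of all nuclear peaks and 51.6% elsewhere (Fisher's exact test, adjusted p = 0.50).

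Peaks on II that overlapped between the replicates had higher scores than those that did not. Their median score was 255 against 82.9 in replicate 1, and 170.72 against 78.1 in replicate 2. The other 5 chromosomes had the same pattern, with 290.4 against 89.3 in replicate 1 and 197.4 against 79.7 in replicate 2. In replicate 1, 64 II peaks, or 36.0%, had no replicate 2 peak within 500 bp, against 28.1% of all nuclear peaks of that list. In replicate 2, 117, or 45.0%, had no replicate 1 peak within 500 bp, against 44.3%. The best of these in replicate 1 lay at 632418 to 632953, 694280 to 696100 and 1037835 to 1039051, with scores of 688.18, 519.51 and 475.59. All 3 were in the left 10% of the chromosome.

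In replicate 2 the best such peaks lay at 14492274 to 14493257, 7055680 to 7056463 and 1144886 to 1145345, with scores of 767.23, 289.22 and 272.67. They were spread over the chromosome. The combined list held 165 of the 178 replicate 1 peaks on II and 236 of the 260 replicate 2 peaks. These shares, 92.7% and 90.8%, were close to the 94.0% and 90.0% over all nuclear peaks. The best-scored II peak that it lacked scored 161.77 in replicate 1 and 364.73 in replicate 2.

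In 75 pairs on II the overlap covered at least 0.5 of both peaks, with each peak in 1 pair only. Their midpoints were a median of 46 bp apart and at most 395 bp, against a median of 36.5 bp on the other chromosomes. The overlap asked of a pair itself limits this distance. The replicate 1 peak was the wider in 53 pairs, and the medians were 557 bp in replicate 1 and 508 bp in replicate 2. These are descriptions across peaks of 2 libraries that share a chromosome and an antibody, not tests.

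**Figure D3:**
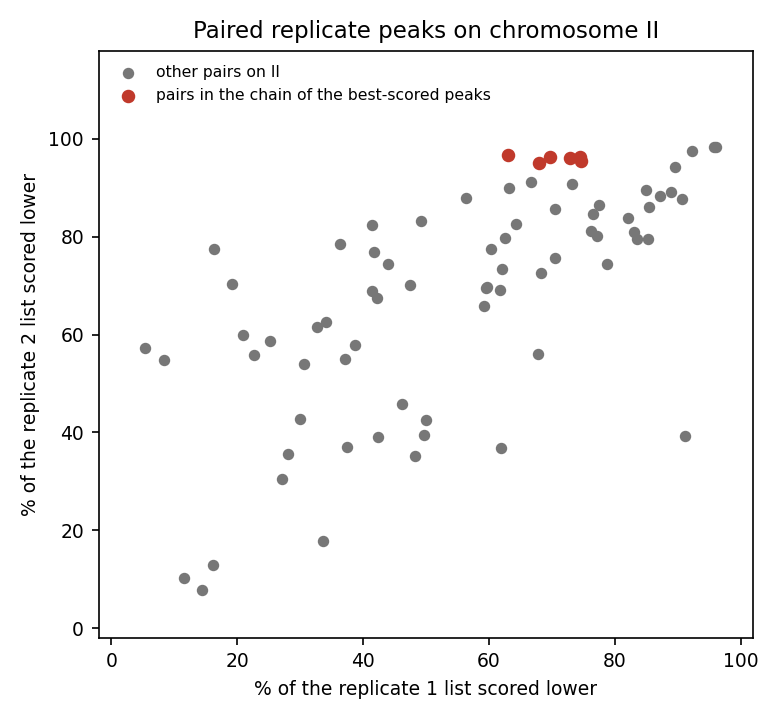
The 75 pairs of replicate peaks on chromosome II, each a point, by the percentage of the replicate 1 list (x axis) and of the replicate 2 list (y axis) with a lower score. The 6 pairs of the chain near the right end (red) lie above 95.1% in replicate 2 but between 62.9% and 74.7% in replicate 1, and the point at 91.2% and 39.2% is the wide region with unequal scores.

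The peaks of II were not spread evenly from left to right. The left 50% of the length held 214 combined peaks, or 39.1% (35.0 to 43.4), and the right 50% held 333 (exact binomial test against 50%, two-sided, p = 4.1e-07). On the other chromosomes the left share ran from 48.5% on IV to 52.3% on X, and they had 49.9% when pooled (Fisher's exact test of II against the other 5, p = 5.2e-06, a comparison added after seeing the data). Peaks lie in chains and are not independent, so the p-values for position on II are too small. With peaks merged within 2 kb, the left share was 40% of 315 places (exact binomial test, p = 0.00046). The left 50% also had less of the covered bases, 37.2%.

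By replicate support, the left share on II was 49.2% (36.6 to 61.9) for peaks found in replicate 1 only and 37.9% (28.5 to 47.96) for those in replicate 2 only. Among the 276 peaks found in neither list 34.8% (29.2 to 40.7) lay on the left, and among the 103 found in both 45.6% (35.8 to 55.7), which did not pass the test (exact binomial test, p = 0.43). The difference between these classes was not tested. In the replicate 2 list 41.9% (35.9 to 48.2) of the II peaks lay on the left (exact binomial test, p = 0.011). In the replicate 1 list it was 45.5% (38.04 to 53.1), which did not pass (exact binomial test, p = 0.26). IV also had low left shares in the replicate lists, 39.0% in replicate 1 and 39.2% in replicate 2.

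**Figure D4:**
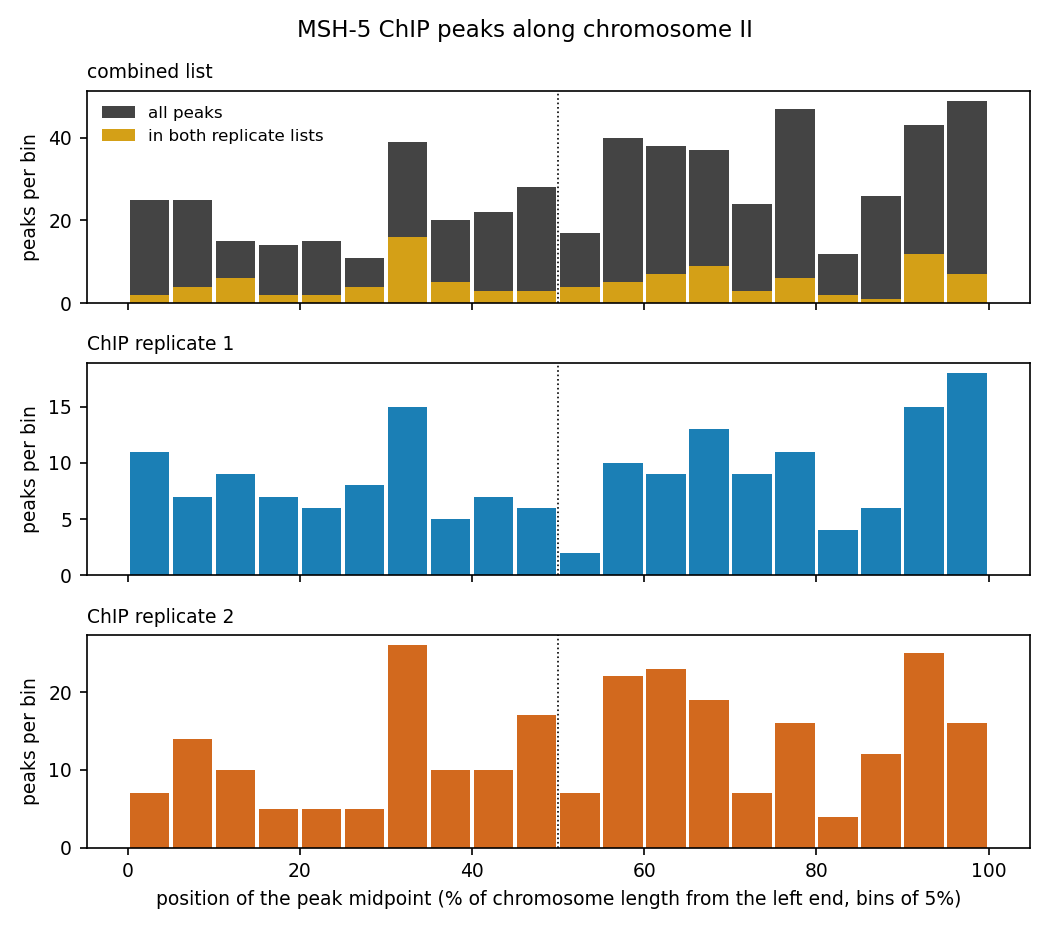
Peaks per 5% of the length of chromosome II, by the position of the midpoint from the left end, in the combined list (top, with the peaks found in both replicate lists in yellow), ChIP replicate 1 (middle) and ChIP replicate 2 (bottom). The dotted line marks 50% of the length: 214 combined peaks lie to its left and 333 to its right.

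In 4 sections of equal length, the combined counts from left to right were 94, 120, 156 and 177. The replicate 1 list had 40, 41, 43 and 54 peaks in these sections and the replicate 2 list 41, 68, 78 and 73. All 3 lists had their lowest count in the leftmost section. Peaks found in replicate 1 only made up 24.5% of the combined peaks in the leftmost section and 7.50%, 7.69% and 11.9% in the others. On each other chromosome this share was also higher in the outer sections than in the central ones, up to 19.6% at the right of IV. Of these leftmost II peaks 6 were in the chain from 694671 to 698915. There 3 of them lay under 1 replicate 1 peak, so they are not separate cases. The share found in both was highest in the left central section, at 25.8% (18.3 to 34.6), and lay between 15.8% and 17.9% in the others. Several combined peaks under 1 replicate peak are each counted in these shares, as at 4641153 to 4645081 in the left central section.

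Arms here are the leftmost and the rightmost 25% of a chromosome. Together they make up 50% of its length, the share that evenly spread peaks would have there. They held 271 of the 547 II peaks, or 49.5% (45.3 to 53.8), against 46.3% of all nuclear peaks and 43.5% (41.4 to 45.6) on the other 4 autosomes (Fisher's exact test, two-sided, adjusted p = 0.033). The share on II was thus near 50%, and that on the other autosomes was below it. The right arm of II had 32.4% of its peaks and the left arm 17.2%. On the other autosomes the right arms had 19.4% to 24.6% and the left arms 19.4% to 23.1%. So II was high on the right arm only and low on the left arm. The higher arm share did not hold in either replicate list: it was 52.8% on II against 52.01% on the other autosomes in replicate 1 (Fisher's exact test, adjusted p = 0.87) and 43.8% against 40.7% in replicate 2 (adjusted p = 0.42). With arms of the outer 33.3% it was 63.99% against 63.9%.

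Counts per 1 Mb ranged widely. The stretch from 14 to 15 Mb had the most combined peaks, 58, of which 10 were found in both replicate lists and 35 in neither. The stretch from 3 to 4 Mb had the fewest of the full windows, 17. From 11 to 12 Mb there were 49 peaks, but only 3 were found in both lists and 31 in neither, although the peak with a combined score of 119.65 lies there. From 4 to 5 Mb there were 26 peaks and 12 of them, or 46.2%, were found in both. However, 4 of the 12 lay under the same replicate 1 peak, at 4641153 to 4645081. In that stretch 9 of the 13 replicate 1 peaks overlapped a replicate 2 peak. So windows with many combined peaks included some with few peaks found in both.

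The densest windows of 100 kb differed in the same way. The window from 5.3 to 5.4 Mb held 18 combined peaks, 4 of them found in both lists, and the window from 10.5 to 10.6 Mb held 18, 5 of them found in both. The window from 14.6 to 14.7 Mb held 14, of which 0 were found in both and 12 in neither, and its best combined score was 8.63. Of the 153 windows on II 21 had no combined peak, and 12 windows with at least 10 peaks each held 27.4% of all peaks.

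The longest stretch of II without a combined peak ran from 12284270 to 12649436, 365.2 kb. It held 0 whole replicate 1 peaks and 1 replicate 2 peak, at 12467152 to 12467283 with a score of 52.84. The stretches from 7537877 to 7870646 (332.8 kb) and from 4323124 to 4553986 (230.9 kb) had no peak in any of the 3 lists. Longer stretches without a combined peak existed elsewhere: 4 on the other chromosomes were longer than the first.

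In the combined list, close gaps between neighbouring peaks made up a larger share on II than elsewhere. Of the 546 gaps between neighbouring combined peaks on II 232, or 42.5% (38.3 to 46.8), were under 2 kb, against 35.8% of all nuclear gaps and 34.4% (32.6 to 36.2) on the other 5 chromosomes (Fisher's exact test, two-sided, adjusted p = 0.0029). The median gap was 5195 bp on II and 9110 bp elsewhere. The share on the other single chromosomes ran from 29.03% on I to 37.7% on V. III, which had more peaks per Mb than II, had 31.6%.

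The closer packing was in the same direction in both replicate lists but did not pass there. In replicate 1 29.4% (22.8 to 36.7) of II gaps were under 2 kb against 24.1% elsewhere (Fisher's exact test, adjusted p = 0.24), and in replicate 2 36.7% (30.8 to 42.9) against 29.3% (adjusted p = 0.052). In replicate 1 the share on IV, 33.2%, was above that on II. In the better-scored 50% of the combined list it was 26.1% against 20.8% (Fisher's exact test, adjusted p = 0.11).

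**Figure D5:**
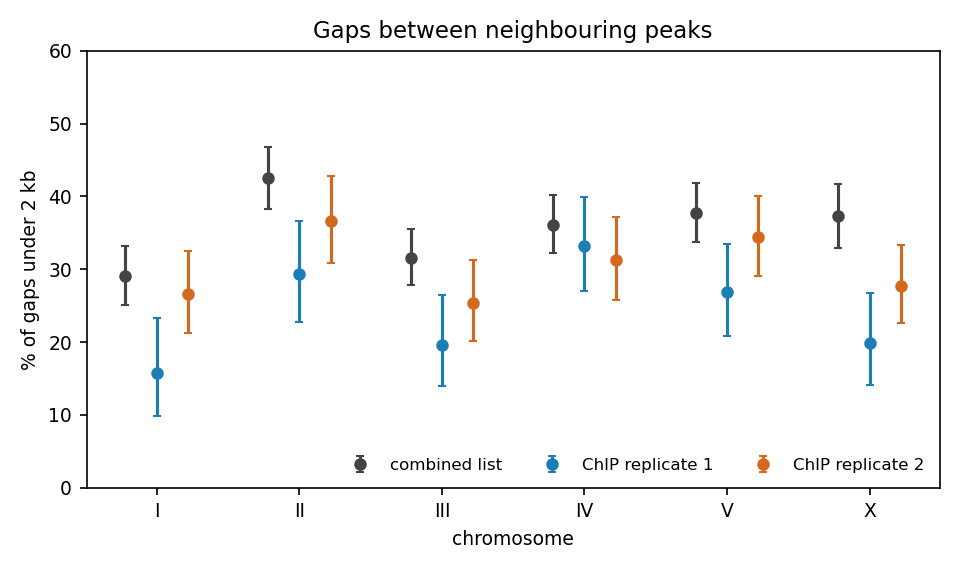
Share of gaps between neighbouring peaks under 2 kb, in percent, by chromosome, for the combined list, ChIP replicate 1 and ChIP replicate 2. Points are shares and bars exact 95% intervals, which take gaps as independent; II is highest in the combined list (42.5%) and in replicate 2 (36.7%), and second to IV in replicate 1.

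Chained together at gaps under 2 kb, the 547 peaks of II gave 315 places, of which 218 were single peaks and 97 were chains with 329 peaks. In the combined list, chains of at least 5 peaks numbered 16 on II and 5 to 15 on each other chromosome. The longest on II had 14 peaks, against at most 10 elsewhere. In replicate 2 II had 7 such chains, against 1 to 4 on each other chromosome, and its longest had 10 peaks. This was not seen in replicate 1, where II had 2, V had 2 and IV had 3. There the longest on II had 6 peaks, against 7 on IV. Of the 16 combined chains on II 10 lay in its right 50%, which is near the 60.9% of all combined II peaks that lay there. The 16 chains spanned 2684 to 11908 bp, with a median of 6345.5 bp.

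Long chains on II did not have higher scores than single peaks by the median. Peaks in chains of at least 5 had a median score of 5.43, and single peaks 6.46. Found in both replicate lists were 18.6% (12.1 to 26.9) of the peaks in these long chains, 24.6% (18.99 to 31.03) of those in chains of 2 to 4, and 13.3% (9.09 to 18.5) of single peaks. Over all widths and chain lengths the share was 18.8% on II and 22.9% of all nuclear peaks, so that of long chains was near the II share. Of the 16 chains 9 had a peak found in both lists and 7 had none. Support by chain length was not counted on the other chromosomes, so none of this is shown to be particular to II.

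The longest chains illustrate the range. The chain of 14 peaks from 14601161 to 14611902 had combined scores of 2.40 to 8.63, and 12 of its peaks were in neither replicate list. The chain of 11 peaks from 5330099 to 5341248 had a best score of 27.58, with 4 peaks in both lists. Another chain of 11, from 1143300 to 1153294, had a best score of 30.64, and 6 of its peaks were in replicate 2 only. By contrast, in the chain of 7 from 694671 to 698915, 6 peaks were in replicate 1 only, and its best score was 14.58.

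At the left end of II, where telomeric repeats lie, all 3 lists had a peak from position 1. In the combined list it ran to 239 and scored 21.65, above 88.6% of that list. It ran to 460 with a score of 355.03 in replicate 1, above 70.5%, and to 442 with a score of 440.56 in replicate 2, above 85.7%. The last combined peak, at 15279035 to 15279186 with a score of 12.37, was in neither replicate list. Short reads are hard to place in repeats, and the input coverage of the ends was not analysed here.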

How the data were processed

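MSH-5 ChIP DNA was sequenced as 2 libraries, beside 2 of input DNA. The submitters' processing notes name BWA and ce10, and the build is WormBase WS220, per the file headers. The authors deposited 3 peak lists with start, end and a score per peak: 1 for each ChIP library, called with MACS, and 1 for the series, called with MACS v2, per the files' source columns. The scale of the deposited score, caller settings, read filters, depth and any pooling of replicates were not given in the sources used, and all scores are the authors'. A gene table of another build was not used.

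From these lists, overlaps of at least 1 bp, gaps, chains (gaps under 2 kb) and sections were computed with Python 3.11.15, pandas 2.3.3 and SciPy 1.17.1, and the code was tested on simulated data. Mitochondrial peaks (2 in the combined list, 1 in replicate 2) were left out. Chromosome length was the end of the last peak in any list. Shares on II were compared with Fisher's exact test, with Benjamini-Hochberg adjustment over 7 tests, and with an exact binomial test for the left 50%, all two-sided. For an alternative, its p took the place of its own main p among the 7. Adjusted p-values of alternatives to different results are therefore not comparable with each other. Intervals are exact 95% Clopper-Pearson intervals and cover the counting of peaks only. Alternatives were other overlap rules, score limits, arm limits, merged peaks and single replicate lists. The regions named are the 10 best-scored II peaks found in both replicate lists, the best of each other support class, the 3 densest windows, the 3 longest gaps, the 3 best replicate peaks absent from the other list, the left end and the widest peaks. The members and lists were chosen with earlier results of these data known. Chains, sections, pairs, the 1 Mb windows and the wide region with unequal scores were described after seeing the data.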

Additional observations from a re-analysis of the deposited data

How the results depend on the processing

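Among 46 alternatives tried for 8 results, 23 left both the direction and the call as they were. The cause of the other changes was not tested. Some of the lists used held fewer peaks, and the part of this in the changes was not tested either. The low share found in both lists (18.8%) did not pass with an overlap of 0.5 of both peaks (10.4%), within 500 bp (24.5%), in the better-scored 50% (36.6%) or against the other 4 autosomes (18.8% against 22.7%), and was 30.7% to 37.7% with a single replicate list. The share in neither list (50.5%) was 62.5%, below the 62.7% elsewhere, with an overlap of 0.5, and 62.3% to 69.3% with a single list. The replicate 1 overlap (58.4%) passed at 42.1% with an overlap of 0.5 and at 64.04% within 500 bp, and the replicate 2 overlap (49.2%) reversed to 72.3% against 70.8% in the better-scored 50%. The share in the best-scored 25% (23.0%) was 19.1% to 19.6% in each replicate's own list and passed in replicate 2, a call that depends on the adjustment. The arm share (49.5%) no longer passed in the better-scored 50% (46.5%), with merged peaks (48.9%) or arms of the outer 33.3% (63.99%), was 43.8% to 52.8% in the single lists, and reversed to 42.7% against 44.6% for peaks found in both. The left share (39.1%) did not pass for peaks found in both (45.6%) and was 41.9% to 45.5% in the single lists. Close gaps (42.5%) did not pass with gaps under 10 kb (56.04%) or the better-scored 50% (26.1%), and were 29.4% to 36.7% in the single lists. Without the chain of the best-scored peaks, added after seeing the data, the share found in both was 18.1%, the left share 39.9% and the close gaps 41.6%, each on the same side. No paired analysis was possible because there is a single condition and no test uses the input libraries. Depth is unknown.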
